A study of Mus musculus with 6 samples.

Results

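The AP-1 and Egr immediate early factors are transcription factors that cells switch on within minutes of a stimulus, and 10 of them were taken by symbol from the 23930 genes of the authors' deposited table comparing microglia of methamphetamine-treated and saline-treated mice. The members are Jun, Junb and Jund of the Jun family, Fos, Fosb and Fosl2 of the Fos family, Atf3 of the ATF family, and Egr1, Egr2 and Egr3 of the Egr family. All 10 were in the table. Microglia are the resident macrophages of the brain, and they were sorted from PBS-perfused brains of adult wild-type C57BL/6 mice as cells positive for CD11b, low for CD45 and negative for CD206. The Meth group was 3 mice given 4 injections of methamphetamine at 5 mg/kg, spaced 2 h apart, and the Saline group was 3 mice given 4 injections of saline at the same spacing. The time between the last injection and collection of the brains is not given in the sources used here. RNA was read with a targeted amplicon panel on an Ion Torrent sequencer, with a primer pair for each gene. For every gene the table lists a log2 average of each group, the fold between them, and a p-value before and after adjustment for the false discovery rate (FDR), all of them the authors' own. It gives no value per mouse, so the spread between the mice and the depth of each library are unknown, and no standard deviation stands beside any average below.

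AP-1 is not a single protein but a family of dimers of leucine-zipper factors, in which a Jun protein pairs with another Jun, a Fos or an ATF protein and binds a short DNA element. Egr factors are zinc-finger proteins that bind GC-rich elements, and the corepressors Nab1 and Nab2 restrain them. Both families are induced through MAP kinases, which act on the serum response factor (SRF) with its ternary complex partners and on the cAMP response element (CRE) binding protein CREB. In microglia they respond to injury and inflammatory signals, and they are also known to be induced while brain tissue is dissociated and sorted.

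The elements through which such genes are induced were looked for in the 250 bases before each RefSeq transcript start, in the RefSeq promoter sequences of build GRCm38.p6. The search covered 12 starts of 8 members, of which 5 were for Egr2. Egr1 and Egr3 were not searched here. The 4 windows below are shown because those of Fos, Atf3 and Egr2 hold a CRE core or a serum response element and that of Jun holds the 8-base form TGACATCA, with the matched bases in capitals. They run from 5′ to 3′ on the strand of the gene, and the positions are chr4:95052223-95052472 on the minus strand for Jun, chr12:85473640-85473889 on the plus strand for Fos, chr1:191183334-191183583 on the minus strand for Atf3 and chr10:67537619-67537868 on the plus strand for Egr2.
Jun: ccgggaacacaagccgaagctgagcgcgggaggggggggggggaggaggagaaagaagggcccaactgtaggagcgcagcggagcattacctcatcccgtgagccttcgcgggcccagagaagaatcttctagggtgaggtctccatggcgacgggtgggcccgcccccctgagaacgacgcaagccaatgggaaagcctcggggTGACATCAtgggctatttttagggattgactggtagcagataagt
Fos: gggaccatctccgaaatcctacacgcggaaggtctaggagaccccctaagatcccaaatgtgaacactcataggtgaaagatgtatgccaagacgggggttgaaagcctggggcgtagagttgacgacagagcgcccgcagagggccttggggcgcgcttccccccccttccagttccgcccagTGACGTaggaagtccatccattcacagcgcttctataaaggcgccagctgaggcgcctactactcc
Atf3: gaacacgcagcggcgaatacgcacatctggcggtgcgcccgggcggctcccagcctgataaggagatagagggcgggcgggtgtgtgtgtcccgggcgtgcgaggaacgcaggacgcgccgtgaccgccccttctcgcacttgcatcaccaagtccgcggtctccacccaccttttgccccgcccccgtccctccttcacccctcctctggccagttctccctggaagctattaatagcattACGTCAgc
Egr2: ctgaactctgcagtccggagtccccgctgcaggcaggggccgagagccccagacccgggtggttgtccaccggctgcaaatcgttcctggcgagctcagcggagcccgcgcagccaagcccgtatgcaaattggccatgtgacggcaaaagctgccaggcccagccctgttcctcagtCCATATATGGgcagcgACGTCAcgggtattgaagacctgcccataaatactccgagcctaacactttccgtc
The capitals mark an 8-base Jun-type element in Jun, a CRE core in Fos and Atf3, and a serum response element followed by a CRE core in Egr2.

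Both strands were searched for each motif. The CRE core TGACGT stood before 3 of the 8 members (Fos, Atf3 and Egr2), against 6.47% of 32851 windows of the same length over all genes. Its first base lay 66 bases before the start in Fos and 8 bases before it in Atf3. The 8-base form TGACNTCA, which holds a CRE core when N is G, matched Jun alone, where the bases were TGACATCA beginning 45 bases before the start, and it matched 7.49% of all windows. A serum response element (CArG box) was found before Egr2, against 1.47% of all windows. The Egr site GCGNGGGCG stood before Fosb and Fosl2, against 4.70% of all windows, and the AP-1 site TGANTCA before none of the 8 members, against 6.75%. Egr2 had more starts than the other members and so more windows in which a match could fall. These matches describe the letters in the window and were not tied to the expression values.

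None of the 10 factors differed between Meth and Saline at an adjusted p under 0.05 per the authors' deposited table. Of all genes 2.24% did, but of the genes whose average reached 1 in either group only 0.357% did. The smallest adjusted p of the members per the authors' deposited table was 0.6258, for Egr3. At an unadjusted p under 0.05 the count was also 0 of 10, against 10.1% of all genes and 14.7% of the 10375 genes whose average reached 1 in Meth or Saline (measurable genes below) per the authors' deposited table. The averages of 8 members were lower in Meth and those of 2 were higher. Of the 8 members that are measurable genes, 6 were lower and 2 higher, while 48.8% of all measurable genes were lower. The median Meth minus Saline difference of the members was -0.255 on the log2 scale, beside 0.02 for the measurable genes and 0.00 for all genes, and it was -0.22 for the 8 members that are measurable genes. The single differences ran from -2.00 for Jun to 0.99 for Egr1. A smaller share of responding cells and less transcript per cell cannot be told apart in sorted bulk samples.

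**Figure D1:**
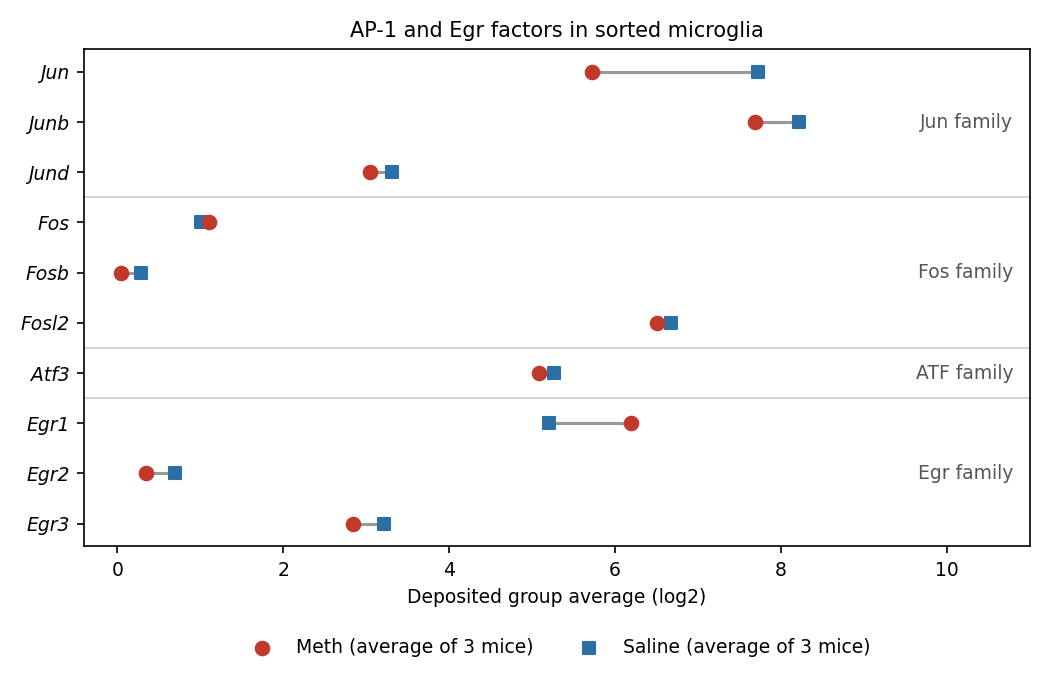
Deposited log2 group averages of the 10 members, with Meth as circles and Saline as squares, each the authors' average of 3 mice, grouped by family down the page. Jun has the widest gap, at 5.72 in Meth and 7.72 in Saline, and Egr1 and Fos are the members whose Meth average lies to the right.

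The Jun proteins are the partners that AP-1 dimers have in common, and all 3 genes had the lower average in Meth. Jun, the prototype activator of the family, stood at 5.72 in Meth and 7.72 in Saline per the authors' deposited table, a 4-fold lower value (unadjusted p = 0.1492, adjusted p = 0.6582). On the linear scale that these averages imply, Jun was at 51.7 in Meth and 210 in Saline, in reads per fixed library total (RPM) as far as the scale can be read. Only 1.54% of measurable genes had a more negative difference than Jun.

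Junb, which often opposes Jun in growth control, was the most abundant member by panel value, at 7.69 in Meth and 8.22 in Saline per the authors' deposited table (1.44-fold lower, unadjusted p = 0.3047). Jund, a broadly and steadily expressed Jun protein, was at 3.05 in Meth and 3.31 in Saline per the authors' deposited table (1.2-fold lower, unadjusted p = 0.5377). The differences of the 3 genes were unequal in size. Junb exceeded Jun by 1.97 on the log2 scale in Meth and by 0.50 in Saline. Summed on the linear scale, the Jun family came to 264 in Meth and 516 in Saline, and Jun made up most of that difference.

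The size of Jun's difference did not bring a small p. In the authors' deposited table, 190 measurable genes differed by at least as much as Jun in either direction, and 49 of them (25.8%) had an unadjusted p under 0.05. Lower values in Meth prevailed among these large differences, with 164 lower and 26 higher. Genes whose difference lay within 0.1 of Jun's had a median unadjusted p of 0.0791, and the p of Jun lay above that median.

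The Fos proteins act mainly as dimers with Jun proteins. Fos itself, the classical marker of recent stimulation, was close to the floor of the scale in both groups, at 1.10 in Meth and 1.01 in Saline per the authors' deposited table (1.07-fold higher, unadjusted p = 0.657). Fosb was lower still, at 0.04 in Meth and 0.29 in Saline per the authors' deposited table (p = 0.2826, unadjusted). Fosl2 (Fra-2), the Fos relative with the more lasting expression, was the abundant member of the family, at 6.51 in Meth and 6.68 in Saline per the authors' deposited table (1.13-fold lower, unadjusted p = 0.9506). The family thus had its highest value in Fosl2 in both groups, far above Fos and Fosb. A low value of a gene can come from a poorly working primer pair as well as from little transcript, so the order of different genes is an order of panel values.

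Atf3, a stress-induced factor that pairs with Jun proteins and can repress inflammatory genes, was at 5.08 in Meth and 5.26 in Saline per the authors' deposited table (1.14-fold lower, unadjusted p = 0.4239). Among the Fos and ATF members measured well above the floor, Fosl2 and Atf3 differed by 0.17 and 0.18 between the groups, against 2.00 for Jun. This does not extend to every partner of Jun. Outside the members, Atf2 was at 4.90 in Meth and 6.44 in Saline, while 7 of the 9 AP-1 genes outside the members were higher in Meth. Jun exceeded Atf3 by 0.64 in Meth and by 2.46 in Saline on the log2 scale. Jun was below Fosl2 by 0.79 in Meth and above it by 1.04 in Saline. No test of these gaps between genes could be made without values per mouse.

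The Egr genes went in different directions by value. Egr1, the founding factor of its family, stood at 6.19 in Meth and 5.20 in Saline per the authors' deposited table (1.99-fold higher, unadjusted p = 0.3532, adjusted p = 0.93). Egr3 was at 2.84 in Meth and 3.21 in Saline per the authors' deposited table (1.29-fold lower), and its unadjusted p of 0.1263 was the smallest of the 10 members. Egr2, known for its part in myelination and in macrophage gene control, was at 0.34 in Meth and 0.70 in Saline per the authors' deposited table (p = 0.6059, unadjusted), under 1 in both groups. Of the measurable genes, 6.69% had a more positive difference than Egr1.

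The p-values of Egr1 and Egr3 were not ordered by the size of their differences. Genes within 0.1 of the difference of Egr1 had a median unadjusted p of 0.103 per the authors' deposited table, below the 0.3532 of Egr1. For Egr3 the median of such genes was 0.266, above its own 0.1263. Egr1 exceeded Jun by 0.47 in Meth, whereas in Saline it was below Jun by 2.52 on the log2 scale.

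**Figure D2:**
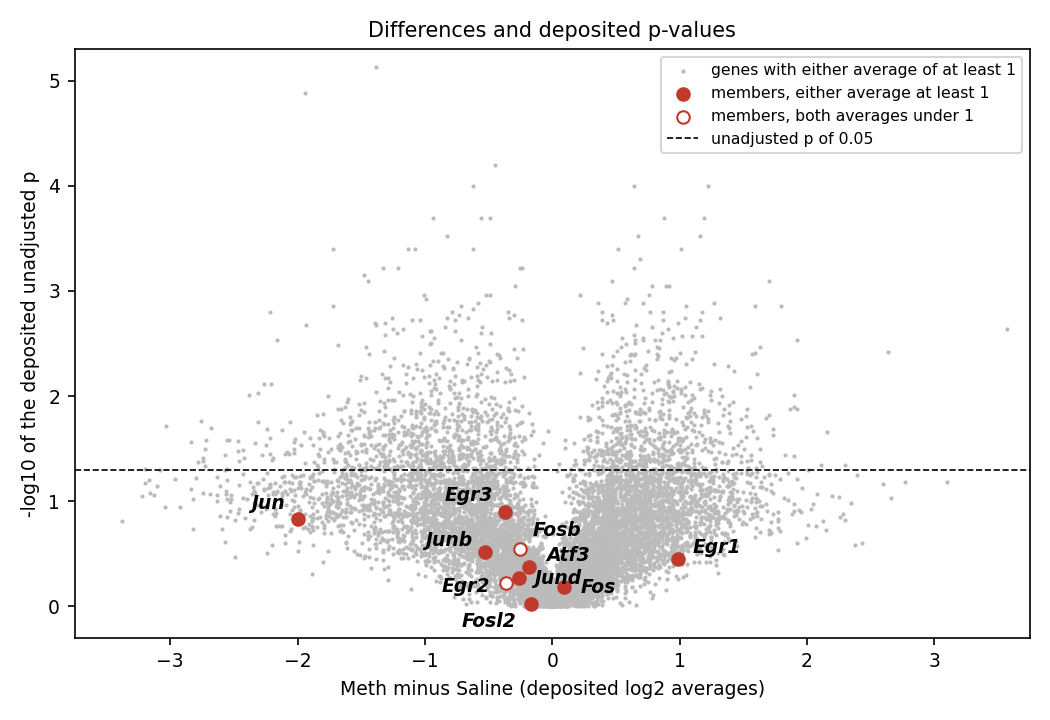
Each point is a gene, with the Meth minus Saline difference of the deposited log2 averages on the x axis and -log10 of the deposited unadjusted p on the y axis, for the 10375 genes whose average reached 1 in either group (grey), the 8 members among them (filled) and the other 2 members (open). All 10 members lie under the dashed line at an unadjusted p of 0.05, with Jun at the far left and Egr1 at the right.

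By panel value the order in Meth was Junb, Fosl2, Egr1, Jun, Atf3, Jund, Egr3, Fos, Egr2 and Fosb. In Saline it was Junb, Jun, Fosl2, Atf3, Egr1, Jund, Egr3, Fos, Egr2 and Fosb. The places that changed were those of Jun, Fosl2, Egr1 and Atf3, all between 5.08 and 7.72 per the authors' deposited table. Whether neighbours in these orders differ beyond the spread between mice is unknown. Junb had a higher mean level than 97.4% of the genes in the table, Jun than 92.7% and Fosl2 than 92%. Fosb had a higher one than 48%, in a table where many genes are at 0 in both groups.

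The remaining AP-1 genes were mostly higher in Meth by value. Among the 9 other AP-1 family members found in the authors' deposited table, 2 had the lower value in Meth and 7 the higher. Their median difference was 0.17, and it was 0.295 for the 8 that are measurable genes. Of those 8, 2 were lower and 6 higher, while 48.8% of all measurable genes were lower. At an unadjusted p under 0.05 there was 1 lower and 0 higher, against 8.19% and 6.46% of the measurable genes. The 2 lower genes of the list were Atf2, which binds CRE sites with Jun, at 4.90 in Meth and 6.44 in Saline (adjusted p = 0.4282, 0.0334 unadjusted) per the authors' deposited table, and the small Maf protein Mafg. Mafg was at 4.01 in Meth and 6.10 in Saline per the authors' deposited table (p = 0.1088, unadjusted), a difference of the size of Jun's.

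The Egr corepressors had opposite signs. Nab1 was at 5.90 in Meth and 5.16 in Saline per the authors' deposited table (1.67-fold higher, unadjusted p = 0.041, adjusted p = 0.4613). Nab2 was at 5.28 in Meth and 5.75 in Saline per the authors' deposited table (p = 0.1706, unadjusted). With Egr4, which was at 0.02 in both groups per the authors' deposited table, their median difference was 0.00, and it was 0.135 for Nab1 and Nab2 alone.

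The factors and kinases that switch these genes on were mixed. Of the measurable genes, 14.7% had an unadjusted p under 0.05, with 8.19% lower in Meth and 6.46% higher. The counts at that threshold in this paragraph are to be read beside these shares. Among the 12 serum response and cAMP response factors found in the authors' deposited table, 7 were lower in Meth and 5 higher. Their median difference was -0.30, and at an unadjusted p under 0.05 there was 1 in each direction. These were the CREB coactivator Crtc2 (6.55 in Meth and 5.96 in Saline; p = 0.0118, unadjusted) and the CREB relative Atf1 (6.31 in Meth and 6.77 in Saline; p = 0.046, unadjusted) per the authors' deposited table. The largest differences of that list were those of the ternary complex factors Elk4 (3.43 in Meth and 5.74 in Saline; p = 0.0667, unadjusted) and Elk3 (5.59 in Meth and 7.08 in Saline; p = 0.096, unadjusted) per the authors' deposited table. Among the 18 MAP kinase pathway genes found in the authors' deposited table, 12 had the lower value in Meth and 6 the higher. Their median difference was -0.24, with 2 genes lower and 1 higher at an unadjusted p under 0.05. Lower at an unadjusted p under 0.05 were Mapk8, which encodes the Jun kinase JNK1 (3.22 in Meth and 4.18 in Saline; p = 0.0343, unadjusted), and Rps6ka5, which encodes the CREB and histone kinase MSK1 (4.42 in Meth and 5.09 in Saline; p = 0.0254, unadjusted), per the authors' deposited table. Map2k6, a p38 kinase activator, was higher at that threshold (5.61 in Meth and 5.31 in Saline; p = 0.0164, unadjusted) per the authors' deposited table. Braf had the largest difference of the MAP kinase list, at 1.91 in Meth and 4.37 in Saline per the authors' deposited table (p = 0.1176, unadjusted). Among the 8 turnover factors and coactivators of AP-1 found in the authors' deposited table, 2 were lower in Meth and 6 higher. Their median difference was 0.28. The chromatin remodelling subunit Smarcb1, at 6.18 in Meth and 5.65 in Saline (p = 0.0144, unadjusted), was the member of that list at an unadjusted p under 0.05 per the authors' deposited table.

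Other immediate early genes held differences as large as that of Jun. Among the 28 that the authors' deposited table lists, 16 were lower and 12 higher in Meth, with a median difference of -0.295, and of -0.545 for the 20 that are measurable genes. None had an adjusted p under 0.05 per the authors' deposited table, where 0.357% of the measurable genes did. At an unadjusted p under 0.05 there were 7 lower and 0 higher, against 8.19% and 6.46% of the measurable genes. The 7 were Trib1, Klf2, Csrnp1, Dusp6, Myc, Klf4 and Zfp36. Dusp6, the phosphatase of ERK kinases, was at 7.17 in Meth and 9.24 in Saline per the authors' deposited table (4.19-fold lower, unadjusted p = 0.0356), close to Jun in its difference. Arc (0.39 in Meth and 0.06 in Saline) and Npas4 (0.06 in Meth and -0.03 in Saline), which neurons induce on activity, were lower in level than Fos in both groups per the authors' deposited table.

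**Figure D3:**
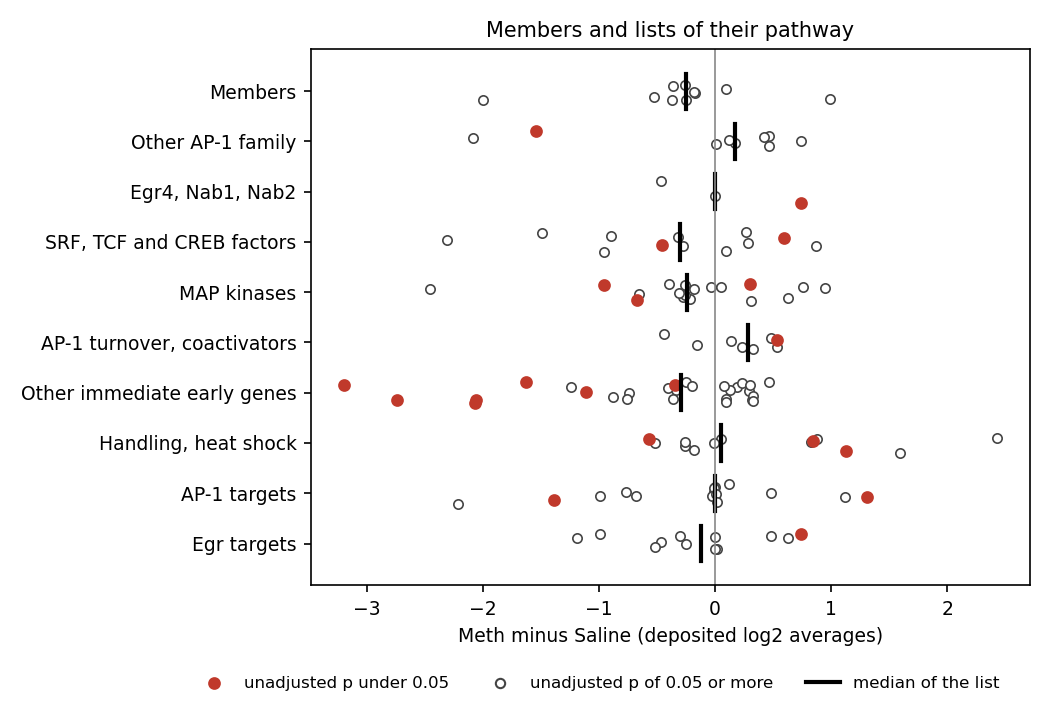
Meth minus Saline difference of the deposited log2 averages on the x axis, 1 point per gene, for the 10 members (top) and 9 lists of related genes, with a bar at the median of each list and filled points at an unadjusted p under 0.05. No member is filled, and the 7 filled points of the other immediate early genes all lie left of 0.

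Handling genes of dissociated microglia were measured beside the members because tissue handling induces both. Among the 13 that the authors' deposited table lists, 6 were lower and 7 higher in Meth, with a median difference of 0.05. The 12 of them that are measurable genes had a median of 0.44, with 5 lower and 7 higher. Nfkbia, the inhibitor of NF-kB, was at 7.56 in Meth and 6.72 in Saline (adjusted p = 0.126, 0.0035 unadjusted), and the oxygenase Jmjd6 at 7.01 in Meth and 5.88 in Saline (p = 0.0243, unadjusted), per the authors' deposited table. Nfkbiz was lower, at 6.01 in Meth and 6.58 in Saline per the authors' deposited table (p = 0.0073, unadjusted). The inducible heat shock gene Hspa1a was at 4.09 in Meth and 1.66 in Saline per the authors' deposited table (p = 0.2512, unadjusted). It shares near-identical sequence with Hspa1b, so its value is uncertain. The part of handling in the difference of Jun was not tested.

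Genes known as targets of these factors showed no common direction. Among the 16 AP-1 targets found in the authors' deposited table, 8 had the lower value in Meth and 6 the higher. Their median difference was -0.005, with 1 gene in each direction at an unadjusted p under 0.05. In either direction, 10.1% of all genes and 14.7% of the measurable genes were under that threshold. Of these 16 genes, 6 had both averages within 0.5 of 0, and the 10 that are measurable genes had a median of -0.355, with 6 lower and 4 higher. The targets at an unadjusted p under 0.05 were cyclin D1 (Ccnd1), at 4.16 in Meth and 5.55 in Saline (p = 0.0176, unadjusted), and the cytokine Il1b, at 3.12 in Meth and 1.81 in Saline (p = 0.022, unadjusted), per the authors' deposited table. Among the 12 Egr targets found in the authors' deposited table, 6 had the lower value in Meth and 4 the higher. Their median difference was -0.125, and it was -0.25 for the 9 that are measurable genes. Nab1 had the smallest p of these targets. Across the 9 lists, which hold 113 different genes with 6 of them in more than 1 list, none had an adjusted p under 0.05 per the authors' deposited table. Only 0.357% of the measurable genes and 2.24% of all genes had one, so a count of 0 does not set these lists apart.

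The cells were checked against markers. The microglial genes Tmem119 (10.85 in Meth and 11.75 in Saline), Cx3cr1 (10.66 in Meth and 11.27 in Saline) and P2ry12 (9.20 in both) were abundant per the authors' deposited table. Summed on the linear scale, 12 neuron markers came to 12.4 in Meth and 7.67 in Saline, with 7 higher and 3 lower in Meth. Of these, Rbfox3 was at 0.04 and Slc17a6 at 0 in both groups per the authors' deposited table, and Nefl had the highest mean level, at 1.85 in Meth and 1.20 in Saline. The neuron markers Stmn2 (1.97 in Meth and 0.92 in Saline; adjusted p = 0.0607, 0.0014 unadjusted) and Gad1 (1.56 in Meth and 0.21 in Saline; p = 0.0132, unadjusted) were higher in Meth at an unadjusted p under 0.05 per the authors' deposited table. Snap25 was lower, at 0.71 in Meth and 1.70 in Saline per the authors' deposited table (p = 0.2084, unadjusted). Endothelial and mural markers summed to 79.3 in Meth and 98.6 in Saline, with 5 of 9 higher and 4 lower. The 3 of that list that reached an average of 1 all had the lower value in Meth, the direction of Jun by value, namely Pecam1 (6.25 in Meth and 6.44 in Saline), Cdh5 (1.31 in Meth and 3.11 in Saline; p = 0.0231, unadjusted) and Kdr (0.61 in Meth and 2.27 in Saline), while Cldn5 was at 0.08 in Meth and 0.07 in Saline, per the authors' deposited table. Astrocyte markers summed to 62.8 in Meth and 154 in Saline, with 6 of 9 higher and 3 lower, and Slc1a3, at 5.21 in Meth and 7.02 in Saline, made up most of both sums, while Gfap was at 0.10 in Meth and 0.24 in Saline per the authors' deposited table. Oligodendrocyte markers summed to 90 in Meth and 110 in Saline, with 5 of 7 higher and 2 lower, and Cnp, which had the highest level, was at 5.04 in Meth and 6.37 in Saline per the authors' deposited table. Mbp was 2.07-fold and Mag 2.24-fold higher in Meth, and Cldn11 was at 0.28 in Meth and -0.01 in Saline (p = 0.0018, unadjusted), per the authors' deposited table. Both averages of Cldn11 are near the floor of the scale. The sums were, for border-associated macrophage markers (3 of 7 higher and 2 lower, led by Mrc1), 28.4 in Meth and 22 in Saline, and for monocyte and neutrophil markers (1 of 7 higher and 4 lower, led by Ccr2 in mean level), 2.36 in Meth and 6.61 in Saline. Cxcr2, the higher one, was at 0.07 in Meth and -0.03 in Saline with an adjusted p of 0.0003 per the authors' deposited table. Both averages are at the floor of the scale, so this p is no sign of a measurable rise. Of the 536 genes with an adjusted p under 0.05, 484 had a Saline average below 0. Plac8 had the largest difference of that list, at 0.36 in Meth and 2.15 in Saline per the authors' deposited table (p = 0.1105, unadjusted). Neurons, endothelial cells and astrocytes express Jun and Egr1 too, and the part of these cells in the values above was not tested.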

How the data were processed

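Libraries of sorted microglia from 3 Meth and 3 Saline mice were prepared with the AmpliSeq mouse transcriptome kit, an amplicon panel, for an Ion S5XL sequencer, per the labels' protocols. Not given in the sources used here are the aligner, the genome build, the counting, the normalization and the model behind the p-values. Per the file headers, the authors' deposited table holds log2 averages of each group, a signed fold, a p-value and an FDR adjusted p-value for each gene. On a log2 scale the deposited fold departs from the difference of averages by at most 0.0166, and the deposited adjusted p-value from a Benjamini-Hochberg adjustment made here by at most 0.00232. The linear values, 2 to the power of the deposited log2 average minus 1, sum to 981392 in Meth and 1012103 in Saline, so the scale was taken to be log2(RPM + 1), where RPM is a gene's reads per fixed library size. No header says so, and averages below 0, listed for 14 genes in Meth and 1425 in Saline, show that they are not plain means of that scale. On this scale a fold understates the change of low genes. The table has 0 columns of values per mouse, so depth is unknown and replicates could not be compared. Of the 536 genes with an adjusted p under 0.05, 499 had both averages under 1, and 37 of 10375 genes (0.357%) with either average of at least 1 had one.

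Differences, medians, counts and linear sums were computed here with Python 3.11.15, numpy 2.4.6 and pandas 2.3.3, the adjustment and motif search were tested on simulated data, and figures were drawn with matplotlib 3.10.9. The lists of related genes were drawn up here and are not the authors' own. No member, list or test is independent of earlier results of these data, since members and lists were chosen with those known. In each list the 4 smallest p-values among genes reaching an average of 1 in either group chose the genes eligible to be named, of which the text gives a part, with Tmem119, Cx3cr1, P2ry12 and the highest gene of each other marker list. Named after their values were seen were Egr4, Braf, Myc, Klf4, Zfp36, Arc, Npas4, Hspa1a, Rbfox3, Slc17a6, Stmn2, Gad1, Snap25, Cdh5, Kdr, Cldn5, Mbp, Mag, Cldn11, Cxcr2, Plac8 and Gfap. List genes not in the table (Atf7, Hspa8, Hsp90aa1, Dnaja1 and Ly6c2) were not analysed here.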

Additional observations from a re-analysis of the deposited data

How the results depend on the processing

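The count of members with an adjusted p under 0.05 was 0 as deposited, with a threshold of 0.1, and with the p-values adjusted over genes with either average of at least 1 or at least 3, and the count at an unadjusted p was 0 at 0.05 and at 0.1. Members lower in Meth numbered 8 of 10, also with differences centred on the median gene, and 6 of the 7 with either average of at least 3. Their median difference of -0.255 was -0.17 with a pseudocount of 4 in place of 1, since the low members then shrink towards 0, and lay between -0.35 and -0.23 under the other 6 alternatives. Of 50 values of single members under the alternatives, 0 changed sign and 7 moved by more than 1.5 times, all of them for Fos, Fosb and Egr2, whose linear values are the smallest. With a pseudocount of 0.1, the difference of Fosb was -1.33 and that of Egr2 -0.99, while Jun stayed at -2.02. Leaving out each replicate in turn was not run, as the table gives no values per mouse. No paired analysis was possible because the table holds 1 average per group. Depth could not be read from averages.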
